A study of Homo sapiens with 6 samples.

Results

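Notch receptors, their ligands, the sugar-transferring enzyme LFNG, the DNA-binding partner RBPJ and the target genes HES1 and HEY1 were followed in T24 cells with and without TGF-β1. The 10 genes were chosen by name from the 58735 gene rows of the deposited table: NOTCH1, NOTCH2, NOTCH3, JAG1, JAG2, DLL1, LFNG, RBPJ, HES1 and HEY1. All 10 were found, and 7 of them had at least 1 FPKM (fragments scaled by exon length and library size) in at least 3 libraries and were tested. NOTCH3, DLL1 and HEY1 fell short of that minimum and are given by their fragments, while the other 7 reached it in all 6 libraries.

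T24 is an established human cell line derived from urothelial carcinoma of the bladder, and its genotype is labelled WT. The control group held 3 libraries of cells grown in medium with 10% fetal bovine serum and antibiotics, with no TGF-β1. The treated group held 3 libraries of the same line and medium with TGF-β1, a secreted cytokine that signals through SMAD proteins, at 10 ng/ml for 48 h. All 6 libraries were of day 2, made from total RNA and sequenced as 150 bp read pairs. Nothing in the labels says that replicates were separate cultures. A p-value here therefore reflects the scatter among these libraries alone, and that scatter may be technical.

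Notch receptors are surface proteins that are activated when a Jagged or Delta-like ligand on a neighbouring cell pulls on them. Metalloproteases and γ-secretase then cut the receptor, and the freed intracellular domain enters the nucleus, binds RBPJ and switches on genes such as those of the HES and HEY repressor families. Fringe enzymes add a sugar to the receptor's extracellular repeats and thereby change which ligands it responds to. In the bladder both tumour-suppressing and tumour-promoting roles have been described for the pathway.

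Promoter sequences are shown for LFNG, the member that passed the test, and for HES1, the classical target whose promoter carries RBPJ letters. Each run is the 250 bases before a start site in RefSeq (GRCh38.p14), read 5′ to 3′ on the gene's strand, and capitals mark the RBPJ letters GTGGGAA or TGGGAA. LFNG has 2 such windows, at chr7:2512279-2512528 and chr7:2517613-2517862, and HES1 has 1, at chr3:194135898-194136147, all on the plus strand.
LFNG window 1: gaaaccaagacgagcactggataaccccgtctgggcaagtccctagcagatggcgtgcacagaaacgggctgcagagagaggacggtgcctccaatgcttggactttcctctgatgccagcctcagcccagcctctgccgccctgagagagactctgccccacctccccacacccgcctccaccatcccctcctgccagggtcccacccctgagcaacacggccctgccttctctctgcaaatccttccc
LFNG window 2: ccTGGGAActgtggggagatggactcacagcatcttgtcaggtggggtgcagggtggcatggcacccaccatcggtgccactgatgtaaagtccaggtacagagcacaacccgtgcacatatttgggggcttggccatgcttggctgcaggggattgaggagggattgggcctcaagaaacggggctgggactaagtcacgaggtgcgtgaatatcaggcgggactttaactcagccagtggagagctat
HES1: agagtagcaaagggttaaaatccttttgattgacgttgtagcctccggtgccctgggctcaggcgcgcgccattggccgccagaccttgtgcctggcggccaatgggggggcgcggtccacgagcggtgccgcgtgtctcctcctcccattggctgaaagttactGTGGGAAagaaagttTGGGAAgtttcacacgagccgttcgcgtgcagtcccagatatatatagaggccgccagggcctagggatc

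Both strands of each window were searched for letters of 3 kinds of factor. For RBPJ these were GTGGGAA and the shorter TGGGAA within it. The letters GTCTAGAC and CAGACA were taken for SMAD proteins. Those for HES proteins were CACNAG. The HES1 window held GTGGGAA with its first letter 85 bases before the start and a second TGGGAA 70 bases before it. It also held CACNAG at 165, 132 and 58 bases before the start. The first LFNG window held none of the 5 motifs, and the second held TGGGAA at 248 and CACNAG at 53 bases before the start. Of all 35116 windows of this length, 5.428% held GTGGGAA, 20.85% TGGGAA and 32.04% CACNAG in their letters. The SMAD letters CAGACA stood in 13.61% and GTCTAGAC in 0.1823% of them. Of the 10 members, 8 had a window in the RefSeq table, 13 windows in all. Those of NOTCH1, NOTCH2, JAG1 and JAG2 held none of the 5 motifs, and 1 of the 5 RBPJ windows held GTGGGAA on both strands, 115 and 73 bases before the start. That RBPJ window also held the SMAD letters CAGACA 98 bases before the start. Another RBPJ window held CAGACA at 51 and CACNAG at 55 bases before the start, and the NOTCH3 window held CACNAG at 211. These matches describe letters in these windows only.

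Across the series, libraries held 20721833 to 23695737 assigned fragments. Genes known to answer TGF-β1 rose in the treated libraries. PMEPA1, a feedback inhibitor of the TGF-β pathway, went from 14.1 ± 1.51 to 68.4 ± 6.12 FPKM and SMAD7, another, from 2.35 ± 0.30 to 6.39 ± 0.932 FPKM (SD, n = 3 each; adjusted p = 7.07e-06 and 0.00055, limma). Of 16 urothelial and epithelial markers 6 reached 1 FPKM in every library, with KRT18 at 322 ± 55.1, KRT8 at 222 ± 26.4 and KRT7 at 14.7 ± 3.29 FPKM in control. KRT5, KRT19 and UPK3A were listed at 0 in every library, and KRT20, GATA3, TP63 and CDH1 were under 0.1 FPKM. The summed level of that marker list was 477 to 645 FPKM in control and 414 to 445 FPKM in treated libraries. None of 5 endothelial, 6 fibroblast and 5 leukocyte markers reached 1 FPKM in every library. Control 3 stood apart from the other controls: among genes of at least 56.3% GC, its median deviation from the gene means was -0.08 on the log2 scale, against 0.18 and 0.20 in controls 1 and 2 and -0.15 to -0.02 in the treated libraries.

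LFNG, the lunatic fringe glycosyltransferase that extends O-fucose on Notch receptors, was the member that passed the test, and it was higher with TGF-β1. With the deposited FPKM tested as log2(FPKM + 1) in limma, 1 of 7 tested members was higher with TGF-β1 and 0 were lower. Over all 11363 genes tested, 2.44% were called, 1.14% higher and 1.29% lower, with Benjamini-Hochberg adjustment at 0.05. At an unadjusted p under 0.05 stood 2 of the 7, LFNG and NOTCH2, where 25.1% of all tested genes did. The median log2 change of the 7 was -0.06, beside 0.01 over all tested genes.

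The library values show which members separate the groups. In LFNG and NOTCH2 every treated library lay above every control, in NOTCH1 every treated library lay below, and the groups overlapped in the other 4. Across all tested genes 27.1% had groups that did not overlap, 14.6% higher and 12.5% lower with TGF-β1, so such a separation was common here.

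**Figure D1:**
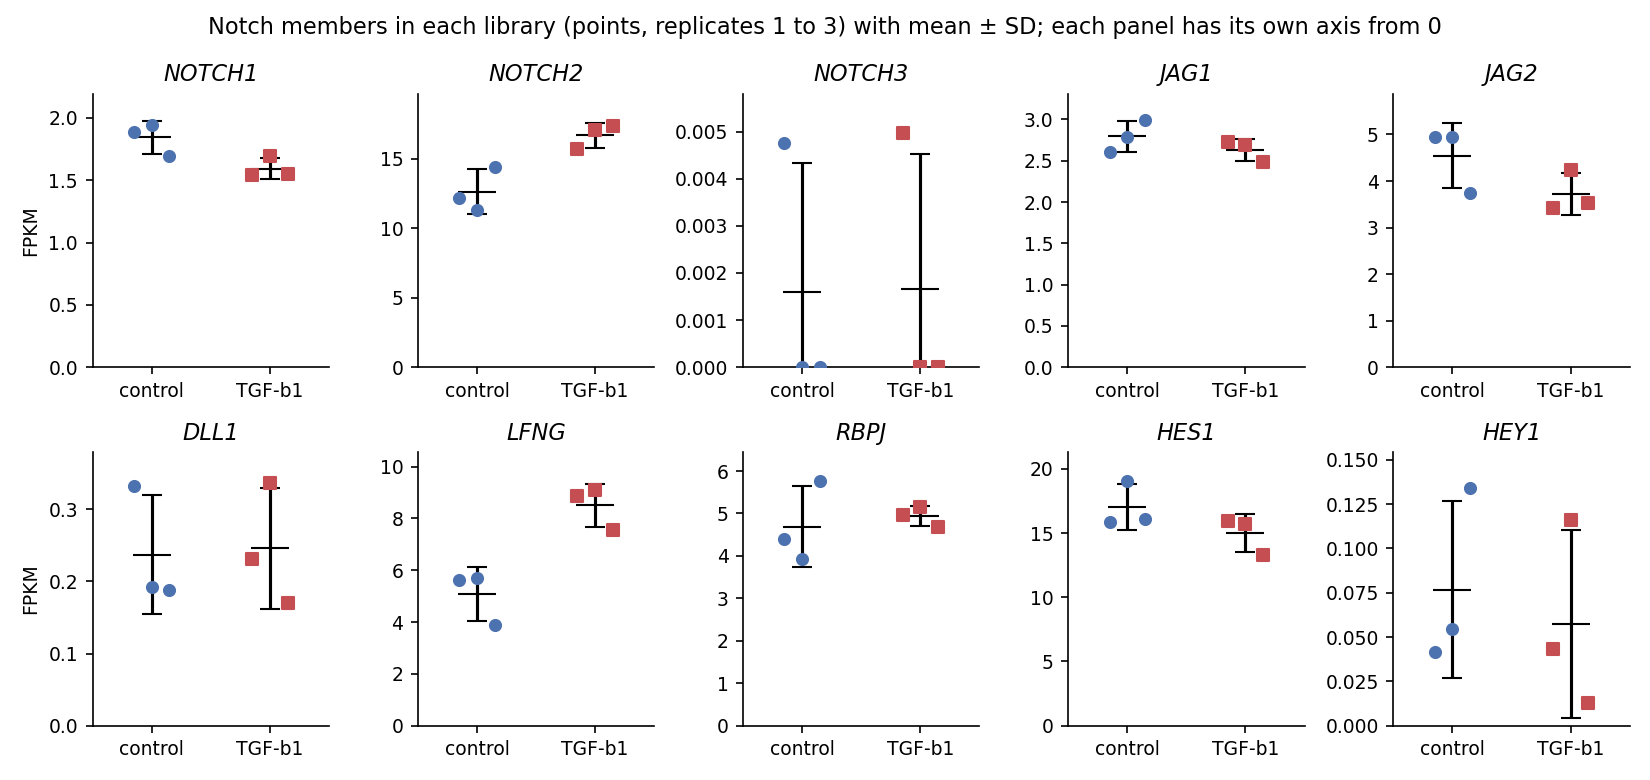
FPKM of the 10 members in each library, with the 3 controls as blue circles and the 3 TGF-β1 libraries (TGF-b1) as red squares. Bars give the mean ± SD, each panel has its own axis from 0, and LFNG shows treated libraries at 7.56 to 9.09 FPKM above controls at 3.87 to 5.71.

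NOTCH2, a receptor of 16807 exonic bases at chr1:119911553-120069626 on the minus strand (GRCh38), was by far the most abundant receptor. Its level was 12.2, 11.3 and 14.4 FPKM in controls 1 to 3 and 15.7, 17.0 and 17.4 FPKM in treated libraries 1 to 3. The groups did not overlap, and the highest control was control 3. The mean was 12.6 ± 1.59 FPKM in control and 16.7 ± 0.888 FPKM with TGF-β1 (SD, n = 3 each), a ratio of 1.32. The log2 change of 0.38 (SE 0.10) had an adjusted p of 0.079 in limma and missed the threshold. Without control 3 it was 0.47 with an adjusted p of 0.0097, where 29.6% of all genes were called against 2.44% with all 6 libraries. With a trend of GC content and length removed from each library the NOTCH2 change was 0.30 and the adjusted p 0.067.

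Near copies of NOTCH2 could take or lend fragments. NOTCH2NLA, a shortened copy of the NOTCH2 5′ part, held 23 fragments over the controls and 65 over the treated libraries, beside 14487 and 19437 for NOTCH2. The pseudogene NOTCH2P1 held 9 fragments in control 2 and 0 in the other 5 libraries. NOTCH2NLB, NOTCH2NLC and NOTCH2NLR matched no usable row by name, so fragments of these copies could not be counted. Summing NOTCH2 with NOTCH2NLA and NOTCH2P1 gave a log2 change of 0.38 and an adjusted p of 0.078.

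NOTCH1 (chr9:136494433-136545786, minus strand), the receptor best known from leukaemia and squamous epithelia, had 1.89, 1.95 and 1.70 FPKM in the controls. The treated libraries had 1.54, 1.69 and 1.55 FPKM. They all lay below the controls, but treated library 2 and control 3 nearly met. The log2 change was -0.13 (SE 0.09) with an adjusted p of 0.382 in limma, and it moved to -0.04 with the GC and length trend removed.

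NOTCH3 (chr19:15159038-15200981, minus strand), a receptor prominent in vascular smooth muscle, had 1 fragment in control 1, 1 in treated library 1 and 0 in the other 4 libraries. A count of 0 allows up to 3 fragments (95% level, counting error alone). No change could be detected at that depth. NOTCH4, an endothelial receptor, held 8 fragments over the controls and 10 over the treated libraries.

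The receptors together therefore rested on NOTCH2. It made up 87.1% ± 2.08 of the summed receptor FPKM in control and 91.2% ± 0.473 with TGF-β1 (SD, n = 3 each), and NOTCH1 made up 12.9% ± 2.12 and 8.72% ± 0.454. The summed level was 14.5 ± 1.47 FPKM in control and 18.3 ± 0.915 FPKM with TGF-β1. The ratio of NOTCH2 to NOTCH1 was 5.81 to 8.49 in the controls and 10.1 to 11.2 in the treated libraries. That separation follows from NOTCH2 lying higher and NOTCH1 lower in every treated library, so it is no separate result. The transcripts differ in GC content, 49.4% for NOTCH2 and 62.9% for NOTCH1, and the part of that difference in the ratio was not tested. In bulk RNA, fewer cells that make a transcript and less of it per cell cannot be told apart.

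**Figure D2:**
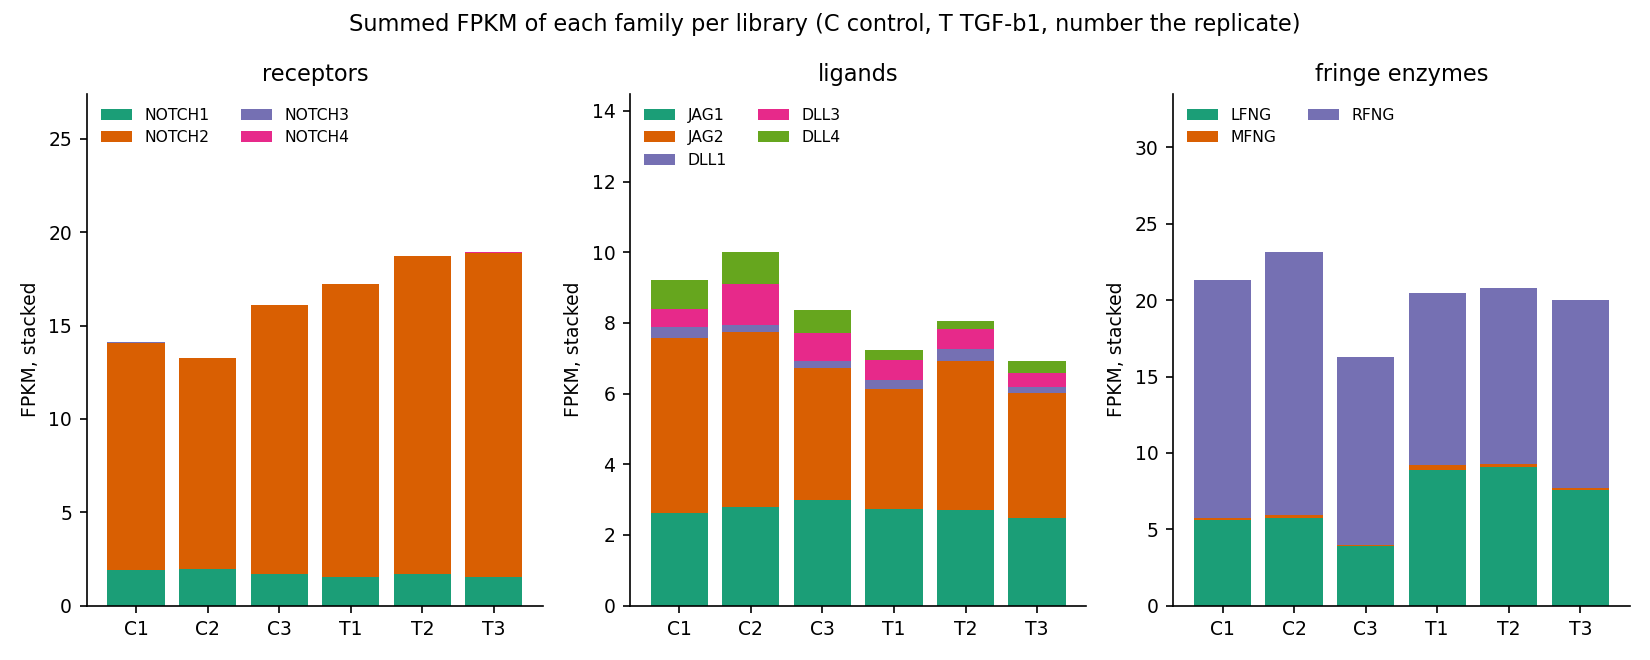
Stacked FPKM of receptors, ligands and fringe enzymes in each library (C for control, T for TGF-β1, with the replicate number). NOTCH2 fills most of every receptor bar, JAG1 and JAG2 most of every ligand bar, and LFNG takes 37.8 to 43.7% of the fringe bar in treated libraries against 23.8 to 26.4% in controls.

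JAG2 was the most abundant ligand, and neither Jagged ligand changed past the threshold. JAG2 (chr14:105140981-105168824, minus strand) had 4.95, 4.95 and 3.74 FPKM in the controls and 3.42, 4.23 and 3.52 FPKM with TGF-β1. Control 3 lay within the treated range, so the groups overlapped. The log2 change was -0.23 (SE 0.12) with an adjusted p of 0.243 in limma. Without control 3 it was -0.34 with an adjusted p of 0.0371, where 29.6% of all genes were called. After removal of the GC and length trend it was -0.07 with an adjusted p of 0.712.

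JAG1 (chr20:10637684-10673999, minus strand), a ligand with wide expression in epithelia, had 2.61, 2.79 and 2.99 FPKM in the controls and 2.72, 2.70 and 2.48 FPKM with TGF-β1. The ranges overlapped, with the highest value in control 3 and the lowest in treated library 3. Its log2 change was -0.06 (SE 0.09) and its adjusted p 0.686.

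DLL1 (chr6:170282206-170306565, minus strand), a Delta-like ligand, was detected in every library but lay below the minimum of the test. It held 24, 14 and 14 fragments in the controls and 16, 26 and 13 in the treated libraries, or 0.332, 0.192 and 0.188 against 0.232, 0.336 and 0.170 FPKM. The groups overlapped fully, and the sums were 52 and 55 fragments. An added fit by voom, limma's weighted fit for counts, took genes with at least 10 fragments in 3 libraries. In it the DLL1 log2 change was 0.08 (SE 0.45) with an adjusted p of 0.928. DLL1 overlaps FAM120B on the opposite strand, which held 1212 and 1369 fragments. Whether reads were counted by strand is not stated in those sources that were used, so fragments of the pair could be exchanged.

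JAG2 made up 49.4% ± 4.57 of the summed FPKM of 5 ligands in control and 50.2% ± 2.73 with TGF-β1, and JAG1 30.6% ± 4.38 and 35.6% ± 2.07 (SD, n = 3 each). DLL1 made up 2.59% ± 0.898 and 3.27% ± 0.864. DLL4, a ligand known from sprouting vessels, made up 8.40% ± 0.604 and 3.99% ± 1.09. The 5 ligands summed to 8.37 to 9.99 FPKM in the controls and 6.93 to 8.06 FPKM in the treated libraries. The groups did not overlap, as in 27.1% of all tested genes. This sum was not tested, and it was not recomputed with the GC and length trend removed.

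LFNG (chr7:2512529-2529177, plus strand) had 5.63, 5.71 and 3.87 FPKM in the controls and 8.87, 9.09 and 7.56 FPKM with TGF-β1. Every treated library was above every control, and replicate 3 was the lowest in both groups. The mean rose from 5.07 ± 1.04 to 8.51 ± 0.824 FPKM (SD, n = 3 each), a ratio of 1.68 that rests on 1179 and 2008 fragments. The log2 change was 0.66 (SE 0.13) with an adjusted p of 0.0266 in limma. A microRNA gene within it, MIR4648, held 0 fragments.

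The change of LFNG was larger after a GC and length trend was taken out of each library. Its longest transcript is 62.7% GC, and GC-rich genes leaned lower in the treated libraries than in controls 1 and 2. Because that lean partly follows treatment, removing the trend can also add or take away a difference between the groups. In that setting the change was 0.86 (SE 0.08) with an adjusted p of 0.00068, where 4.38% of all genes were called. Without control 3 the change was 0.51 with an adjusted p of 0.0114, where 29.6% of all genes were called. The call was lost without treated library 1 (adjusted p = 0.0505) and without treated library 2 (0.0868), with changes of 0.63 and 0.61. It was also lost in limma without trend or robust estimation (0.0546) and with no filter on low values (0.310), where 0.053% of 28285 genes were called. By voom, limma's weighted fit for counts, on genes with at least 10 fragments in 3 libraries, the LFNG change was 0.79 with an adjusted p of 0.0013, where 7.66% of genes were called.

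**Figure D3:**
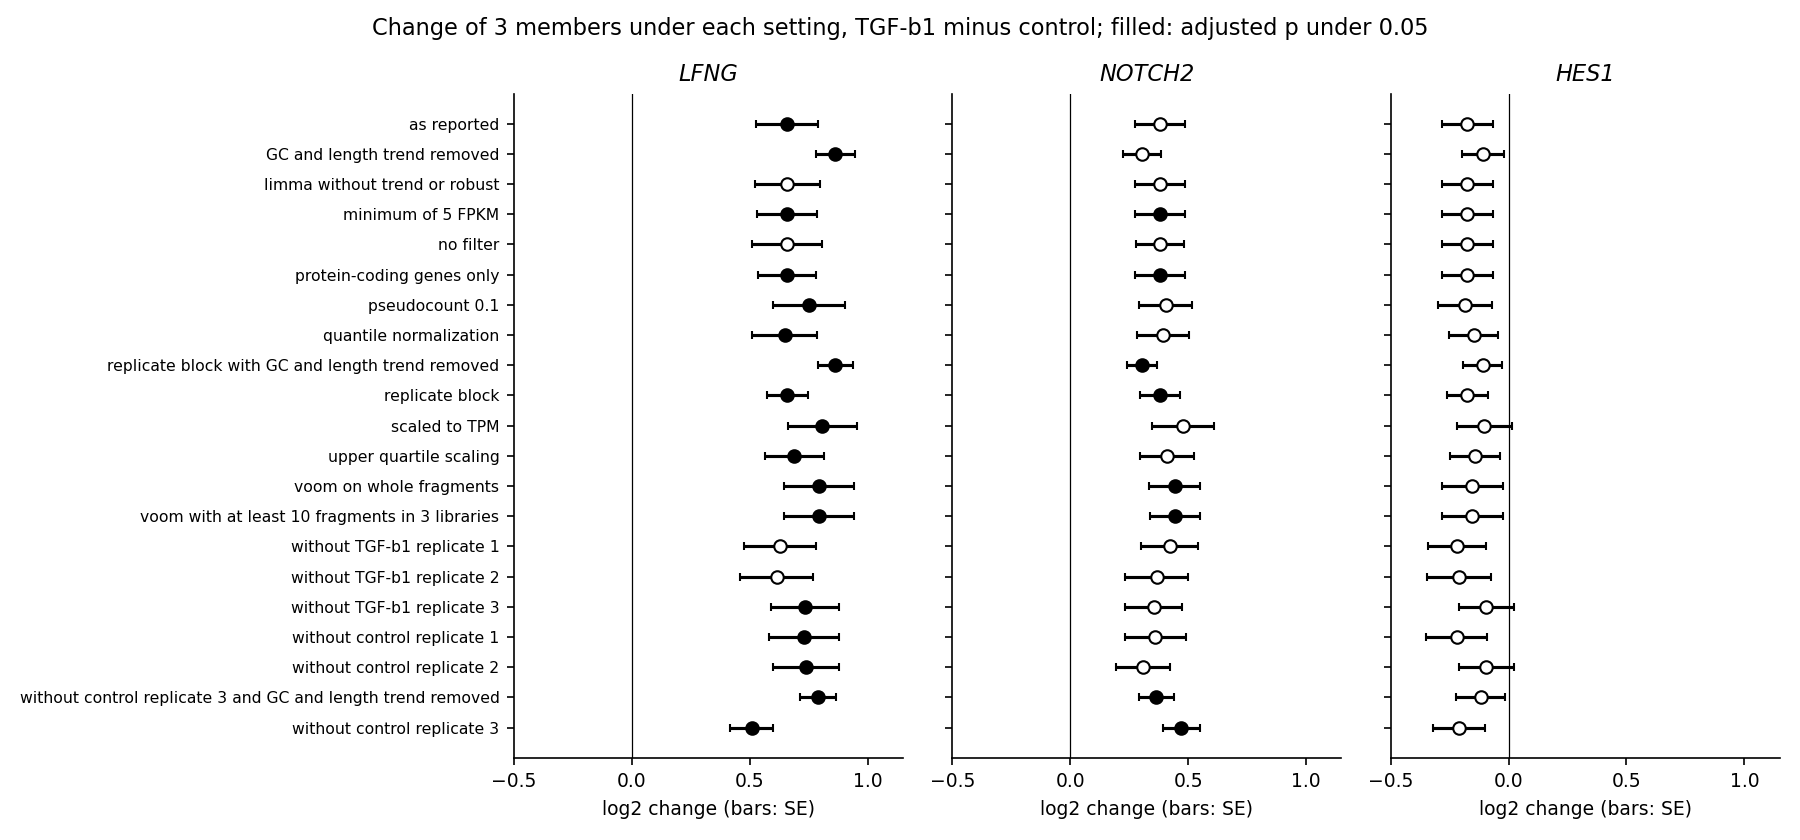
Log2 change (TGF-β1 minus control, bars give the SE) of LFNG, NOTCH2 and HES1 under each processing setting, with filled points past an adjusted p of 0.05. LFNG lies between 0.51 and 0.86, NOTCH2 between 0.30 and 0.48, and HES1 between -0.22 and -0.09 with no filled point.

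The plot of 3 members by setting shows that the sign held for each under every setting run. LFNG was past the threshold in 16 of 20 alternatives, NOTCH2 in 8 of 21 and HES1 in 0 of 20. The settings in which NOTCH2 passed called 4.67 to 29.6% of all genes, against 2.44% as reported.

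LFNG was compared with the other fringe enzymes, which extend the same O-fucose. RFNG, radical fringe, overlaps GPS1 on the opposite strand, so fragments of that pair could be exchanged if reads were not counted by strand. RFNG had 15.6, 17.2 and 12.3 FPKM in the controls and 11.3, 11.5 and 12.3 FPKM with TGF-β1. Its log2 change of -0.33 (SE 0.12) had an adjusted p of 0.135, and was -0.09 with the GC and length trend removed. LFNG made up 24.97% ± 1.36 of the summed fringe FPKM in control and 41.6% ± 3.29 with TGF-β1. The ratio of LFNG to RFNG was 0.362, 0.332 and 0.314 in the controls and 0.785, 0.790 and 0.616 in the treated libraries. In LFNG every treated library lay above the controls and in RFNG every one lay below. The groups therefore could not overlap in this ratio, which was not tested and is no separate result. The transcripts are 62.7% and 66.8% GC. MFNG, manic fringe, held 26 and 46 fragments.

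Of all tested genes outside the members, DGKD, DNM2 and CDC25A followed LFNG most closely over the 6 libraries, with Pearson r of 0.996, 0.993 and 0.985 on log2(FPKM + 1). In all, 113 genes had r over 0.9, and the 6 points share 2 groups and their libraries' depth and base composition. DNM2, a dynamin GTPase, had mean levels of 18.7 FPKM in control and 23.0 FPKM with TGF-β1, and none of the 3 passed the test (adjusted p = 0.262, 0.115 and 0.205).

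RBPJ (chr4:26163455-26435131, plus strand), the DNA-binding protein that the cut receptor joins, had 4.39, 3.92 and 5.76 FPKM in the controls. The treated libraries had 4.96, 5.15 and 4.69 FPKM and lay inside the control range. The log2 change was 0.07 (SE 0.12) with an adjusted p of 0.718 in limma. Its sign turned to -0.08 after removal of the GC and length trend, and to -0.03 without control 2. The related gene RBPJL held 8 fragments over the controls and 16 over the treated libraries, and the pseudogenes RBPJP2, RBPJP5, RBPJP6 and RBPJP7 held 0 in every library.

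HES1 (chr3:194136145-194138732, plus strand), the repressor often used as a readout of Notch activity, was well expressed in both groups. It had 15.9, 19.1 and 16.1 FPKM in the controls and 16.0, 15.7 and 13.3 FPKM with TGF-β1. The groups overlapped, with treated library 1 above control 1. The mean was 17.0 ± 1.78 FPKM in control and 14.99 ± 1.49 FPKM with TGF-β1 (SD, n = 3 each). The log2 change of -0.17 (SE 0.11) had an adjusted p of 0.316 in limma.

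HEY1 (chr8:79764010-79767863, minus strand), a related repressor, was barely detected. It held 3, 4 and 10 fragments in the controls and 3, 9 and 1 in the treated libraries. The sums were 17 and 13 fragments, and no difference could be detected at that depth.

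Levels per length could be ordered within each group. In control HES1 was highest, then NOTCH2, then LFNG, RBPJ and JAG2, whose neighbours overlapped in their ranges, then JAG1, NOTCH1, DLL1, HEY1 and NOTCH3. With TGF-β1 the ranges of NOTCH2 (15.7 to 17.4 FPKM) and HES1 (13.3 to 16.0 FPKM) overlapped at the top. LFNG, at 7.56 to 9.09 FPKM, stood above RBPJ at 4.69 to 5.15 FPKM, where in control their ranges had overlapped. The order below RBPJ was JAG2, JAG1, NOTCH1, DLL1, HEY1 and NOTCH3.

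Around these members, 63 other genes of the pathway were listed by role and 46 were tested. Of the 46, 1 was lower with TGF-β1 and 0 were higher, where 2.44% of all tested genes were called. An unadjusted p under 0.05 was found for 17 of the 46, against 25.1% of all tested genes. Their median log2 change was 0.03. The gene called lower was MYC, the growth-promoting transcription factor and a Notch target in T-cell leukaemia. MYC had 32.8, 35.7 and 32.7 FPKM in the controls and 24.8, 27.0 and 23.99 FPKM with TGF-β1, without overlap. Its log2 change was -0.40 (SE 0.09) with an adjusted p of 0.0493 in limma. MYC passed in 9 of 20 alternatives and was lost when any single library other than control 3 was left out (adjusted p 0.0754 to 0.183). Without control 3, 20 of the 46 were called, 9 higher and 11 lower, in a setting that called 29.6% of 11173 genes.

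**Figure D4:**
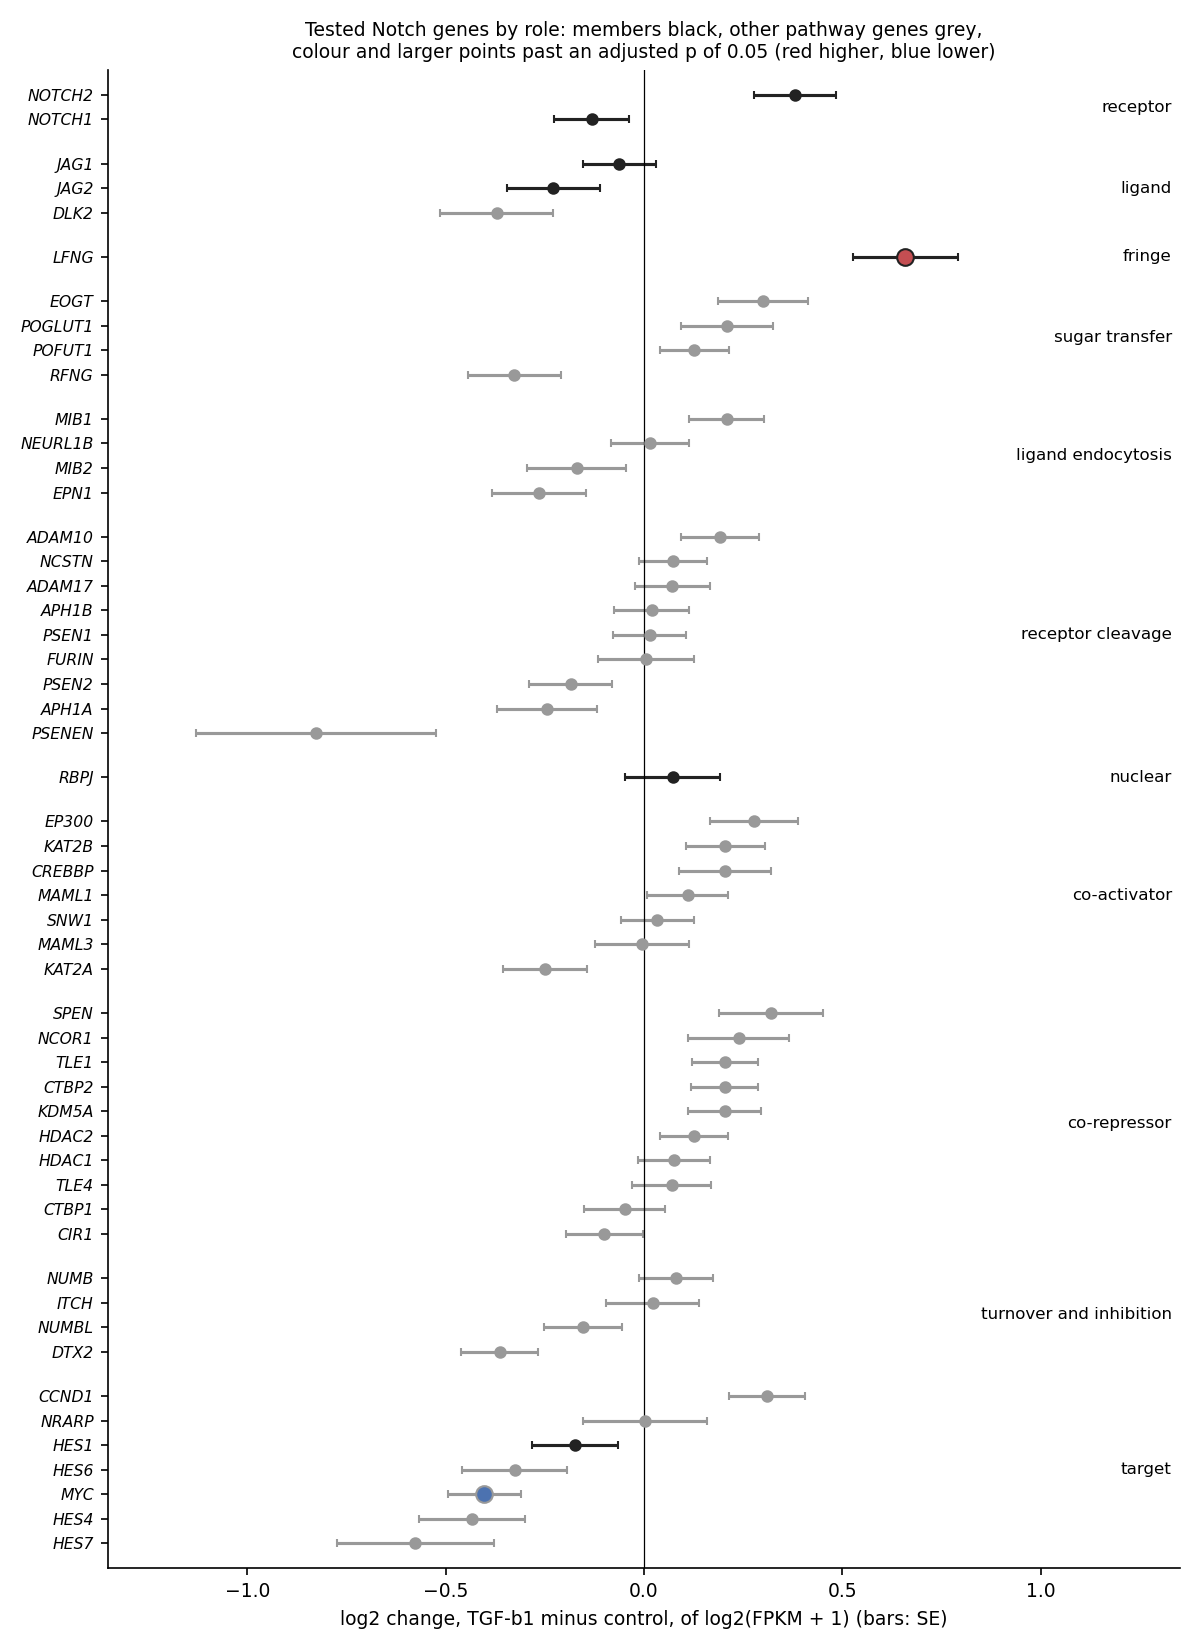
Log2 change (TGF-β1 minus control, bars give the SE) of the 7 tested members (black) and the 46 other tested pathway genes (grey) by role, except 1 that is not reported here. LFNG, in red at 0.66, and MYC, in blue at -0.40, are the genes past an adjusted p of 0.05, and PSENEN has the lowest value shown, -0.83.

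Target genes other than MYC did not pass. CCND1, which encodes cyclin D1, had 125 ± 6.12 FPKM in control and 155 ± 4.04 FPKM with TGF-β1 (log2 change 0.31, adjusted p 0.102), and 0.33 with adjusted p 0.0302 once the GC and length trend was removed. HES4, a HES1 relative, had 47.9 ± 8.13 and 35.0 ± 4.25 FPKM (log2 change -0.43, adjusted p 0.102). Its transcript is 73.9% GC, and with the trend removed the change was -0.10. NRARP, a feedback inhibitor of Notch, had 2.12 ± 0.679 and 2.09 ± 0.354 FPKM (SD, n = 3 each). Of 10 listed targets besides HES1 and HEY1, 6 were tested. An unadjusted p under 0.05 in limma was found for 5 of the 6, MYC among them, against 25.1% of all tested genes. Their changes were negative in 4 and positive in 2, and the targets were not tested as a set.

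**Figure D5:**
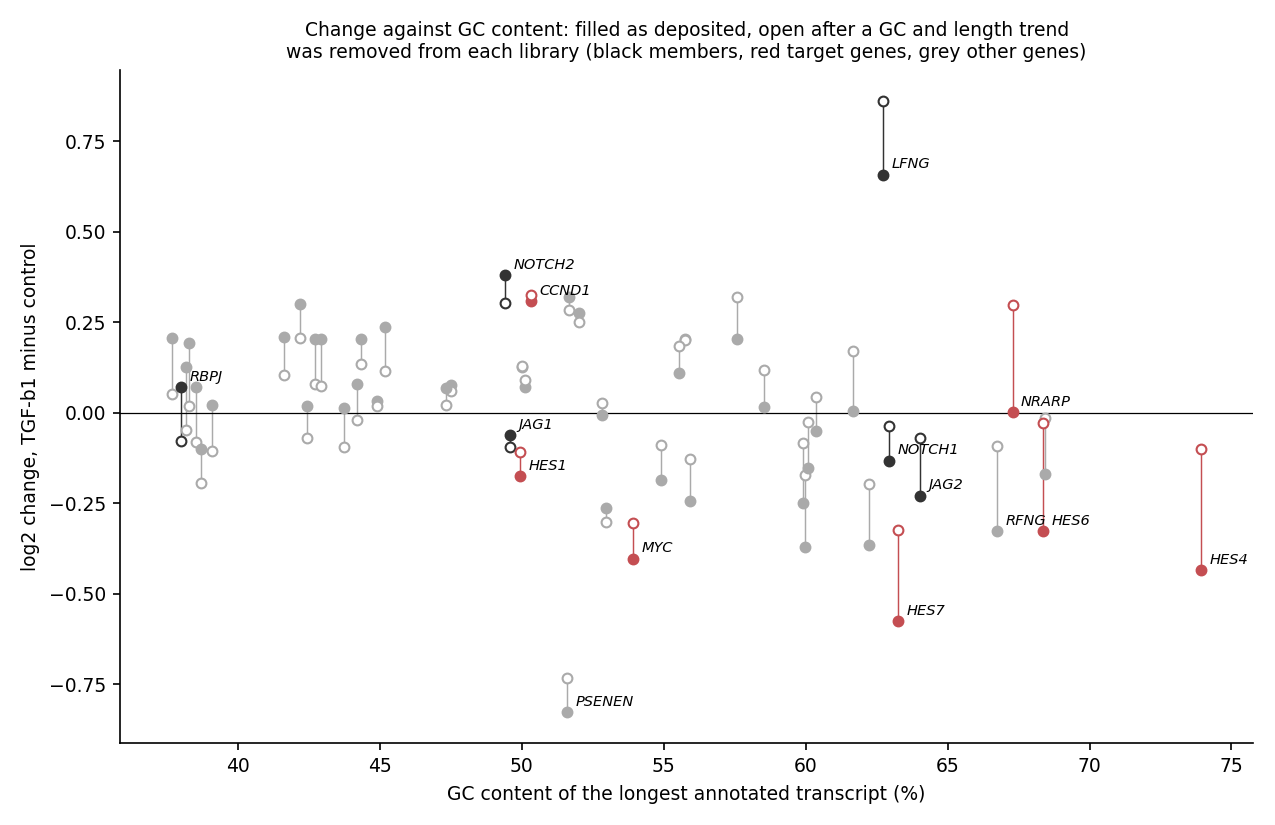
Log2 change (TGF-β1 minus control) of the tested Notch genes, 1 left out, against the GC content of the longest transcript, filled as deposited and open after a GC and length trend was removed from each library. Members are black, targets red (HES1 among them) and other genes grey; HES4 at 73.9% GC moves from -0.43 to -0.10 and LFNG at 62.7% GC from 0.66 to 0.86.

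The plot of change against GC content sets members beside the other genes. Members rich in GC, NOTCH1, JAG2 and LFNG, all moved up when the trend was removed, and RBPJ, at 38.0% GC, moved down. The removal shifts genes by their GC content and length by construction, so these shifts are no separate result.

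No gene of the other roles passed, where 2.44% of all tested genes were called. The counts were 0 of 4 for sugar transfer, 0 of 4 for ligand endocytosis and 0 of 9 for receptor cleavage. The same held for 0 of 7 co-activators, 0 of 11 co-repressors, 0 of 4 genes of turnover and inhibition and 0 of 1 ligand. At that share, 0 calls among so few genes say little about a role. POFUT1, which attaches the O-fucose that fringe enzymes extend, had 29.8 ± 0.477 FPKM in control and 32.7 ± 1.19 FPKM with TGF-β1. MIB1, the ubiquitin ligase that activates ligands in the sending cell, had 5.31 ± 0.534 and 6.28 ± 0.245 FPKM, and EPN1, an endocytic adaptor, 11.2 ± 1.91 and 9.05 ± 0.335 FPKM. The γ-secretase subunit APH1A had 63.2 ± 10.6 and 52.7 ± 3.10 FPKM, and FURIN, a protease that processes the receptor, 36.9 ± 4.74 and 37.0 ± 4.23 FPKM. Among co-activators KAT2A had 17.6 ± 1.73 and 14.7 ± 1.31 FPKM, and SNW1 25.6 ± 1.79 and 26.2 ± 1.08 FPKM. Among co-repressors HDAC1, a histone deacetylase, had 67.7 ± 1.48 and 71.4 ± 2.83 FPKM. The receptor antagonist NUMB had 8.93 ± 0.821 and 9.47 ± 0.298 FPKM and the ubiquitin ligase ITCH 30.9 ± 5.35 and 31.0 ± 0.601 FPKM (SD, n = 3 each, control before TGF-β1).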

How the data were processed

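RNA of 3 control and 3 TGF-β1 libraries of T24 cells was analysed, grouped by the labelled treatment. The authors deposited FPKM, fragments scaled by gene length and library total, per the file headers. HISAT2 2.0.5, featureCounts 1.5.0-p3 and build hg38 are named in the submitters' processing notes. The sources used here do not give the strand setting, annotation release or trimming.

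Rows of mapping totals (11) were left out. GENCODE 29 lengths on GRCh38 matched 56967 of 58735 rows one to one, and all 84075 values of up to 500 fragments came out whole to within 0.05. The fragments give the depths. The FPKM denominators, 0.9631 to 1.0354 times the assigned fragments, follow median-of-ratios factors to within 0.035%, a scaling that the labels do not mention.

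Treatment was tested with limma 3.58.1 (R 4.3.3), with trend and robust estimation, on log2(FPKM + 1). The 11363 genes that reached 1 FPKM in 3 or more libraries entered, with Benjamini-Hochberg adjustment over all of them and a threshold of 0.05. The code was tested on simulated data. A pseudocount of 1 understates the change of low genes. Within groups chi-square per degree of freedom was 7.56 to 36.1, so no library was a duplicate. Libraries held 53591796 to 60200816 reads, of which 93.52 to 95.47% were mapped and 2.42 to 2.76% mapped to several places. On a gene of 2000 bp 3 fragments are 0.0625 to 0.0701 FPKM.

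Alternatives were other pseudocounts, filters, scalings and estimators, voom on whole fragments, removal of a GC and length trend, the replicate number as a block, protein-coding genes only, NOTCH2 summed with its copies, and leaving out each library.

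The members and lists were chosen with earlier results of these data known. Besides members, near copies and treatment genes, the rule named pathway genes past the threshold, the 2 most abundant per role, and the 3 genes most like LFNG. DLL4, DTX2, HES6, HES7, NRARP, PSENEN and TLE1 were chosen after their values were seen. The values of a few genes that the rule names are not reported here.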

Additional observations from a re-analysis of the deposited data

How the results depend on the processing

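Genes called over the whole table were 277 as reported, 495 with the GC and length trend removed, 500 with a minimum of 5 FPKM, 15 with no filter, 845 among protein-coding genes, 1009 by voom, 1120 by voom with at least 10 fragments in 3 libraries, 1226 without control 3 and with the trend removed, and 123 to 3307 when 1 library was left out, the highest without control 3. The voom fit with 10 fragments and the combination of control 3 and the trend were chosen after seeing the data. Members called were 1 as reported, 0 in limma without trend or robust estimation and with no filter, 2 (LFNG and NOTCH2) with a minimum of 5 FPKM, among protein-coding genes, by both voom fits and without control 3 with the trend removed, and 0 to 3 when 1 library was left out. Other pathway genes called were 1 as reported, 0 without trend or robust estimation, with no filter, with a pseudocount of 0.1, with quantile normalization and scaled to TPM. They were 4 with the trend removed, 2 with a minimum of 5 FPKM, 3 among protein-coding genes, 4 by voom, 6 by voom with 10 fragments, 9 without control 3 with the trend removed, and 0 to 20 when 1 library was left out. The settings differ in the genes tested, the libraries used and the fit, and the cause of the differing counts was not tested.

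Whether the replicate numbers pair the samples is not settled by these values. Same-numbered libraries deviated with r of 0.25, -0.07 and 0.17. Libraries of replicates 1 and 3 correlated best with their own number, and control 2 and treated library 2 did not. With the replicate number as a block 767 genes (6.75%), 2 members and 4 other pathway genes were called. With the block and the trend removed the counts were 528 (4.67%), 2 and 2.

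Changes of sign, all in log2 changes that did not pass the test, were these. With the trend removed, with or without the block, RBPJ was -0.077, ITCH -0.11 and NUMB -0.019. With the trend removed and without control 3 ITCH was -0.017. When 1 library was left out, RBPJ ranged from -0.027 (without control 2) to 0.20, FURIN from -0.10 (without control 3) to 0.093, ITCH from -0.066 (without control 2) to 0.15 and SNW1 from -0.020 (without control 1) to 0.076. Of 137 values of the members over all alternatives, 121 kept sign and side of the threshold, 4 lost it, 9 gained it and 3 changed sign. All are refits of the same libraries. Of the 7 tested members only LFNG had a call to lose, and it lost the call in 4 of 20 alternatives. Depth limits NOTCH3, HEY1 and DLL1.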

Other observations

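DLL4, below the minimum of the test, had 0.798, 0.882 and 0.645 FPKM in the controls and 0.285, 0.236 and 0.354 FPKM with TGF-β1, without overlap. These are 251 and 96 fragments, a ratio of 0.376 of the mean levels. By voom on genes with at least 10 fragments in 3 libraries, an alternative added after seeing the data, its log2 change was -1.37 with an adjusted p of 0.0052, where 7.66% of 14627 genes were called. In limma with no filter its adjusted p was 0.273. DLL3, another Delta-like ligand, held 149 and 93 fragments, and DLK2, a related surface protein, had 3.87 ± 0.996 and 2.72 ± 0.309 FPKM (SD, n = 3 each; adjusted p 0.151, limma).

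HES7 and HES6, relatives of HES1, did not pass in limma on FPKM. HES7 had 26.4, 29.4 and 20.1 FPKM in the controls and 20.8, 17.1 and 12.4 FPKM with TGF-β1. Its log2 change was -0.58 (adjusted p 0.139, limma), and -0.32 after a GC and length trend was taken out. It passed in 4 of 20 alternatives, among them the voom fit used for DLL4 (adjusted p 0.0338). HES6 had a log2 change of -0.33 (adjusted p 0.165, limma), and -0.03 after the trend was taken out, and passed in 1 of 20.

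PSENEN, a γ-secretase subunit, had 5.40, 5.39 and 2.27 FPKM in the controls and 2.28, 2.15 and 1.32 FPKM with TGF-β1, so that control 3 lay among the treated libraries. Its log2 change was -0.83 (SE 0.30, adjusted p 0.172, limma). The gene overlaps U2AF1L4 on the opposite strand, which held 63 fragments in control and 51 with TGF-β1. PSENEN passed in 6 of 19 alternatives. The change was -1.10 with an adjusted p of 0.0432 in the voom fit used for DLL4, where 7.66% of genes were called. Without control 3 it was -1.15 with an adjusted p of 0.0062, where 29.6% of genes were called. DTX2, a Deltex ubiquitin ligase, had 8.40 ± 0.805 and 6.29 ± 0.365 FPKM without overlap (log2 change -0.36, adjusted p 0.0753, limma). Its change was -0.20 after the trend was taken out, and it passed in 3 of 20 alternatives. TLE1, a Groucho co-repressor, had 9.004 ± 0.219 and 10.5 ± 0.203 FPKM without overlap (log2 change 0.20, adjusted p 0.169, limma). After the trend was taken out its change was 0.32 with an adjusted p of 0.0407, and it passed in 2 of 20 alternatives.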
